A study of Mus musculus with 5 samples.

Results

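The mitochondrial ribosomal protein genes described here were 78 of the 52143 genes in the deposited table, and they were chosen by symbol: Mrpl or Mrps, then digits, then at most 1 lower-case letter. Where a symbol stood on more than 1 row, the row with the highest mean over the 5 samples was kept, which concerned Mrps10 and Mrps23, each on 2 rows with identical values. No other measured value entered the choice, but the family was picked from results of the same 2 groups, so the differences between groups describe these genes and are not independent evidence about them. All 78 were protein-coding in GENCODE release M21 on GRCm38, and they lay on 17 chromosomes, with at most 11 on any 1 (chromosome 11). By the protein each encodes, 26 belonged to the small subunit, 51 to the large subunit and 1, Mrps36, to neither.

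RNA was sequenced from colon tumors of littermate female mice, 8 weeks old at the start. All had received tamoxifen for 5 days, azoxymethane (a carcinogen, 10 mg/kg) and 4 cycles of 2.0% dextran sulfate sodium, which injures the colon epithelium, and were killed on day 87. The 2 Control samples (Villin1-Cre-ERT, replicates 1 and 4) carried only the Cre recombinase, and the 3 SIGLEC12 samples (SIGLEC12-Villin1-Cre-ERT, replicates 2, 3 and 4) carried in addition the human SIGLEC12 gene in the ROSA26 locus. The recombinase is driven by the Villin1 promoter, so the transgene, which encodes the lectin Siglec-XII, is switched on by tamoxifen in intestinal epithelium and not in stroma or immune cells. The deposited unit was log2(TPM + 1). TPM gives the abundance of a transcript per length relative to all RNA in the sample. The depth behind a TPM is unknown, so no counting interval is given.

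Mitochondria keep their own ribosome, which makes the few proteins encoded by mitochondrial DNA, all of them subunits of the respiratory chain and ATP synthase. Its rRNAs come from mitochondrial DNA, while every ribosomal protein is encoded in the nucleus, made in the cytosol and imported. The small subunit reads the mRNA and the large subunit forms the peptide bond. Many of the proteins have a counterpart in bacterial ribosomes and others are found only in mitochondria. Nearly all cell types express these genes, and intestinal epithelium, which relies on respiration for much of its energy, is among them.

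Markers of both columnar and squamous epithelium were high in all 5 samples. The mean log2(TPM + 1) of 9 columnar markers was between 4.26 and 6.52, lowest in Control replicate 1 and highest in SIGLEC12 replicate 4. That of 5 squamous markers, which a colon gland should lack, was between 5.26 and 8.07 and highest in Control replicate 1. The mean of the fibroblast markers was 1.17 and 1.25 in Control and between 1.58 and 2.85 in SIGLEC12. That of the endothelial markers was 0.28 and 0.30 against 0.52 to 0.98. The means of the columnar, fibroblast and endothelial sets did not overlap between the groups, although the single genes Krt20, Vil1, Col1a1, Col1a2 and Lum did. The mean of the 4 B and plasma cell markers did not overlap either, at 0.04 and 0.10 in Control and between 0.21 and 0.34 in SIGLEC12. In this set Jchain was at 0.12 and 0.24 against 1.22, 0.85 and 0.64, and Ms4a1 at 0.03 and 0.06 against 0.08, 0.10 and 0.14. The plasma cell gene Mzb1 overlapped, at 0.01 and 0.05 against 0.04, 0.04 and 0.05, as did the B cell gene Cd79a, at most at 0.04. The T cell gene Cd3e was at most at 0.28, and Cd2, the glial Sox10 and the adipocyte Adipoq were each at 0 in 1 sample. In bulk samples, fewer cells of a type and less RNA per cell cannot be told apart. Protein-coding genes took 5.70% and 6.73% of all TPM in Control and between 8.75% and 9.72% in SIGLEC12, without overlap. A second scale is therefore given beside the deposited one: TPM rescaled so that the protein-coding genes summed to the same total in each sample. The rescaling moved the median difference of all 10338 genes tested from 0.38 to 0.01 on the log2 scale.

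The start sites of 5 members are shown because they span the range of the group differences described below, with the motifs counted at the end marked. Each is 300 bases, from 250 before to 50 after the start of transcription, read 5′ to 3′ on the strand of the gene from RefSeq on GRCm38.p6. Capitals mark matches on either strand to NRF1 (GCGCATGC), ETS (CCGGAAG) and YY1 (AAGATGGC) cores, CCAAT boxes (CCAAT), E-boxes (CACGTG) and GC boxes (GGGCGG).
Mrpl12 (chr11:120484387-120484686, plus strand): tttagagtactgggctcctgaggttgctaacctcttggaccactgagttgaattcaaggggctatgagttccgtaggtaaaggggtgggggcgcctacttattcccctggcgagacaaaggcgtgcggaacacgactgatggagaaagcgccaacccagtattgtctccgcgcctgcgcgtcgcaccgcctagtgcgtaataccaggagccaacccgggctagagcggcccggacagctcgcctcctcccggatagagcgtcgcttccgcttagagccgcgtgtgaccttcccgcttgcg
Mrps33 (chr6:39810887-39811186, minus strand): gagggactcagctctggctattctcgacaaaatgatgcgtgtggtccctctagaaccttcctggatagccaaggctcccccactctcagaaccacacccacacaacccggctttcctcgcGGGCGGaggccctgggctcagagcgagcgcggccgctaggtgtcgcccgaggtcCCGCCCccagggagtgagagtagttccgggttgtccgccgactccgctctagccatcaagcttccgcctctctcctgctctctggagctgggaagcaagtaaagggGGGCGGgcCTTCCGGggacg
Mrpl33 (chr5:31613701-31614000, plus strand): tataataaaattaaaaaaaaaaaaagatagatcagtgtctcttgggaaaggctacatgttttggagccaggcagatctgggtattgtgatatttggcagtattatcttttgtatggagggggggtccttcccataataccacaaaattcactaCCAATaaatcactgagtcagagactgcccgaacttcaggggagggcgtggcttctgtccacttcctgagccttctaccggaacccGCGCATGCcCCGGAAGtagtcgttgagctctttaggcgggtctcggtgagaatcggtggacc
Mrps12 (chr7:28741772-28742071, minus strand): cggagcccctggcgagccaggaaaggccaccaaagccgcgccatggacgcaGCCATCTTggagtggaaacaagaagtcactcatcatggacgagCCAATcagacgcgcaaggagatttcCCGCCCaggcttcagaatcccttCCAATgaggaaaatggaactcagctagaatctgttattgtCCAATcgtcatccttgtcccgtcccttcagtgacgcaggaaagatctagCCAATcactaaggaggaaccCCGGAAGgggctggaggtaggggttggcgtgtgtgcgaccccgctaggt
Mrps25 (chr6:92183974-92184273, minus strand): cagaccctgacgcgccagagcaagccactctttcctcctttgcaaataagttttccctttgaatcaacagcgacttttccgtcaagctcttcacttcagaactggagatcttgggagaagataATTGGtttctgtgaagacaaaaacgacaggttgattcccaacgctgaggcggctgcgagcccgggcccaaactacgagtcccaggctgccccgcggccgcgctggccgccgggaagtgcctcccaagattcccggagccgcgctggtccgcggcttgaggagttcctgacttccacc
Mrpl12 and Mrps33 had the largest group differences of their subunits and Mrps25 the smallest. No match was found in the Mrpl12 window. In Mrpl33 an NRF1 core at position -12 from the start was followed by an ETS core at -3. This RefSeq start lies inside the GENCODE gene that Mrpl33 was matched to, which spans chr5:31596935-31664384. In Mrps12 the window held 4 CCAAT boxes, between -156 and -19, and an ETS core at 2, while the ETS core of Mrps33 was on the opposite strand at 39. Mrps25 held 1 CCAAT box on the opposite strand.

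Members were expressed at low to moderate levels. Their mean TPM over the 5 samples had a median of 3.94 and ranged from 0.767 (Mrpl23) to 20.6 (Mrpl52), against a median of 2.88 for the 9222 protein-coding genes tested. In the large subunit the highest levels per length were those of Mrpl52 (20.6 TPM), a protein found only in mitochondrial ribosomes, of Mrpl33 (14.6 TPM) and of Mrpl12 (12.1 TPM). In the small subunit they were those of Mrps21 (15.2 TPM), Mrps6 (8.35 TPM) and Mrps12 (7.10 TPM), each with a bacterial counterpart. Median TPM was 3.22 for the small and 4.0 for the large subunit. The plot of members by sample gives every value.

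**Figure D1:**
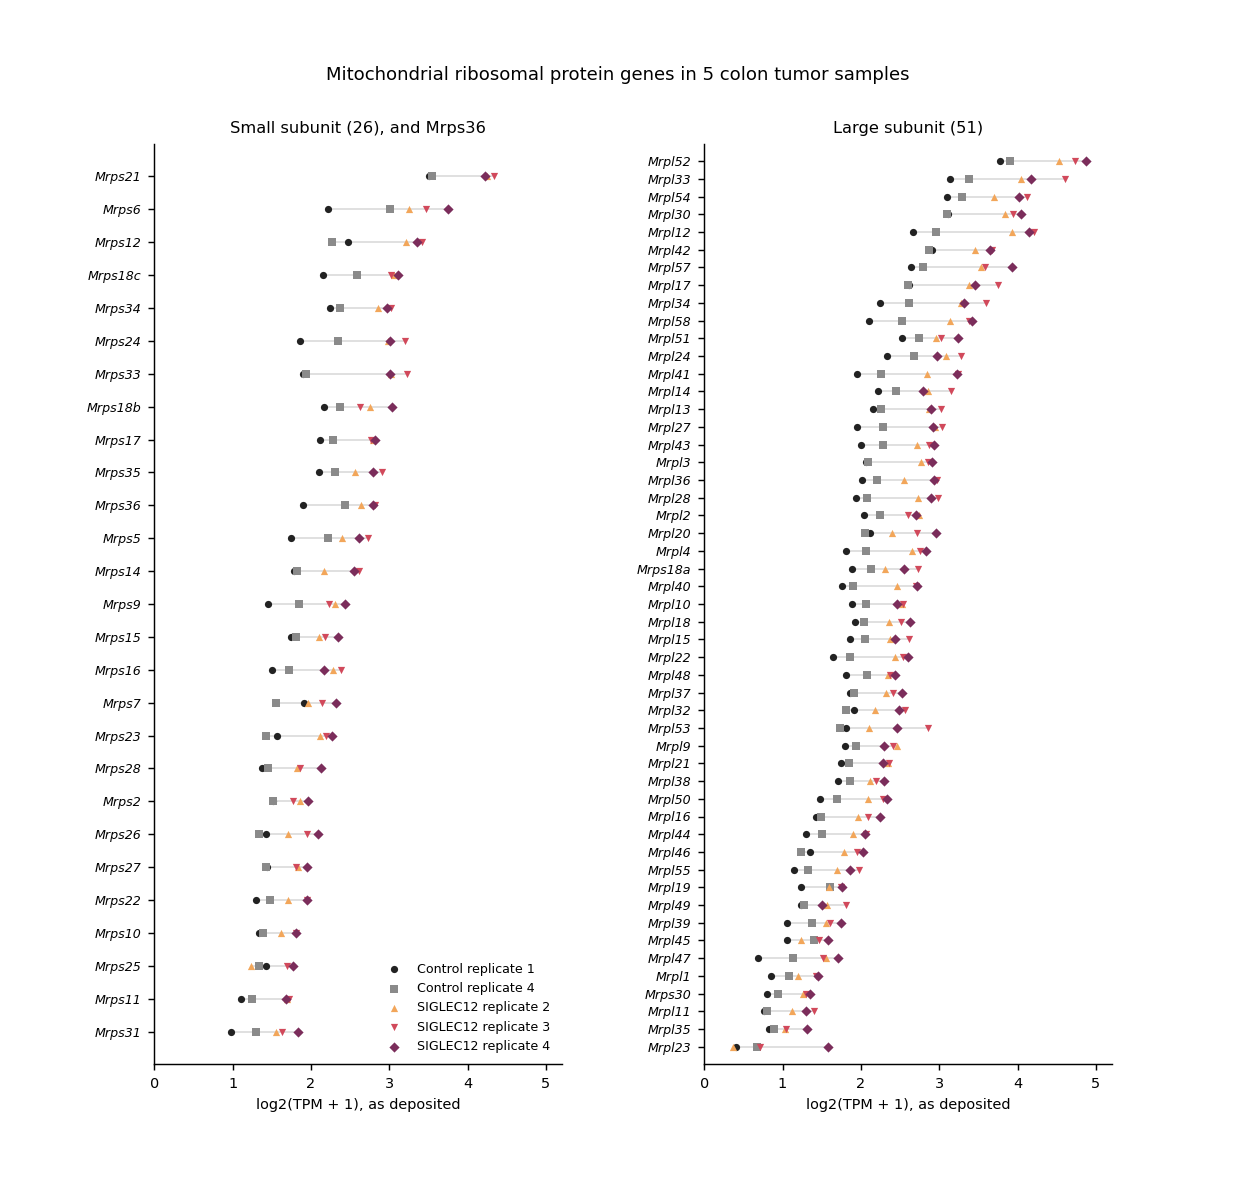
Deposited log2(TPM + 1) of each of the 78 members in each of the 5 samples, ordered by mean, with the small subunit and Mrps36 on the left and the large subunit on the right. Control points (black circles, grey squares) lie to the left of all SIGLEC12 points (triangles, diamonds) for 74 members. The exceptions were Mrps25, Mrpl19, Mrpl45 and Mrpl23.

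Mitochondrial ribosomal protein mRNA was higher in the SIGLEC12 tumors as deposited, for nearly every member, and no single member passed the test after adjustment. The summed TPM of the members was 230 and 269 in Control replicates 1 and 4, and 410, 483 and 477 in SIGLEC12 replicates 2, 3 and 4. Averaged over the members, log2(TPM + 1) in the 2 Control samples had a mean of 1.91 ± 0.12 (SD), and in the 3 SIGLEC12 samples of 2.55 ± 0.11 (SD). All 78 differences were positive, from 0.19 to 1.28, and 59 were at least 0.5. In 74 of 78 members all 3 SIGLEC12 samples were above both Control samples, where 54.1% of all genes tested were so. The median difference over the 77 members that passed the expression filter (TPM of at least 1 in at least 2 samples) was 0.61, against 0.38 over all genes tested and 0.40 over protein-coding genes. On the linear scale the ratio of mean TPM had a median of 1.75 and ranged from 1.25 to 2.70.

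By limma, 68 of the 77 members tested were higher in SIGLEC12 at an unadjusted p under 0.05, where the share of all genes was 33.4%, and 0 were lower, where the share was 0.909%. The 9 members tested that missed it were Mrpl51, Mrps7, Mrpl1, Mrpl49, Mrps2, Mrpl19, Mrpl35, Mrpl45 and Mrps25. The 77 include Mrpl11, Mrpl35 and Mrps30, which passed the filter only through their SIGLEC12 samples. Of these, Mrpl11 and Mrps30 are among the 68, and their being called higher is no support for a difference. After Benjamini-Hochberg adjustment over all genes tested, 0 members and 0.0% of all genes passed 0.05, and the adjusted p of the members lay between 0.0974 and 0.506. A difference of at least 1 in log2(TPM + 1) was found for 4 members (4.68% of all genes): Mrpl12, Mrps33, Mrpl33 and Mrpl41. The added 1 shrinks folds at these low levels, and by the ratio of mean TPM, without it, 16 of the 77 members tested were at least 2-fold higher, where 13.7% of all genes were so. With 2 against 3 samples an exact permutation test of a single gene cannot go below p = 0.1. The counts depended on single libraries: without Control replicate 4, 21 of 77 members passed an adjusted p of 0.05 (limma, the lone Control sample assumed to vary like the SIGLEC12 samples), where 18.3% of all genes did. A difference of at least 1 was then found for 10 members, which is no larger a share than the 14.6% of all genes, and without SIGLEC12 replicate 2 for 9 (6.17% of all genes). The count higher at an unadjusted p under 0.05 was 39 without Control replicate 1 (14.0% of all genes), and 44 without SIGLEC12 replicate 3 (22.9%) or replicate 4 (23.7%).

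Rescaled to the protein-coding total, the differences were smaller and mostly kept their sign. Of the 78 members 71 had a positive difference, the median over those tested was 0.21 against 0.01 over all genes, and in 40 all SIGLEC12 samples were above both Control samples, where 15.6% of all genes were so. At an unadjusted p under 0.05, 14 members were higher (4.45% of all genes) and 0 were lower (6.31% of all genes), and 0 had a difference of at least 1 (0.871% of all genes). The 14 were Mrpl12, Mrpl41, Mrpl58, Mrpl34, Mrpl57, Mrpl27, Mrpl28, Mrpl47, Mrpl4, Mrpl40 and Mrpl22 of the large subunit and Mrps33, Mrps24 and Mrps12 of the small subunit. The smallest adjusted p of limma over the members on this scale was 0.457. The members took 0.440% and 0.443% of nuclear protein-coding TPM in Control replicates 1 and 4, and 0.502%, 0.598% and 0.550% in SIGLEC12 replicates 2, 3 and 4. The Control samples were thus alike in this share, and every SIGLEC12 sample was above them, by 1.25 times on average. As deposited, where 54.1% of all genes were higher without overlap, the means of the columnar (4.26 and 5.62 against 5.74 to 6.52), fibroblast and endothelial markers were higher in every SIGLEC12 sample than in both Control samples. So was Jchain, though not Mzb1. Krt20, Vil1, Col1a1, Col1a2 and Lum overlapped between the groups as deposited. Rescaled, 2 of the 8 columnar and 3 of the 5 fibroblast markers tested were higher without overlap (15.6% of all genes). Pdgfra, among the fibroblast markers tested, passed the filter only through its SIGLEC12 samples, and no endothelial marker passed it. The part of these markers' cell types in the members' share was not tested.

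**Figure D2:**
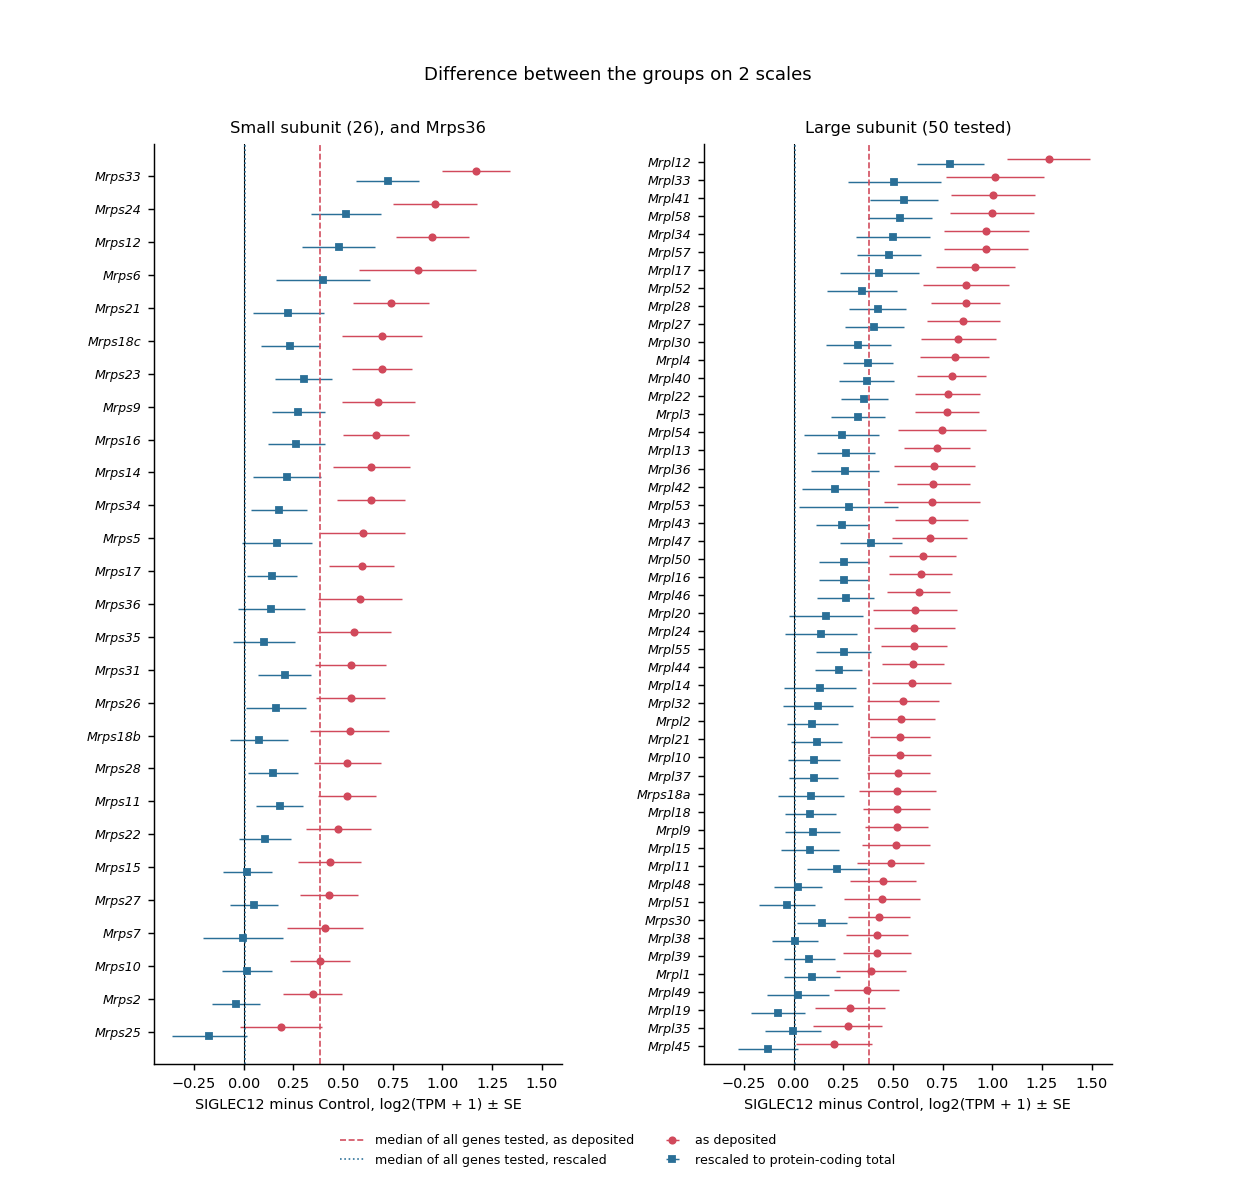
Difference between the groups (SIGLEC12 minus Control) in log2(TPM + 1) with its standard error from limma, for each of the 77 members tested, as deposited (red circles) and rescaled to the protein-coding total (blue squares). Dashed and dotted lines give the median of all genes tested on each scale, 0.38 and 0.01. As deposited every point is above 0, and rescaled 70 of the 77 are.

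**Figure D3:**
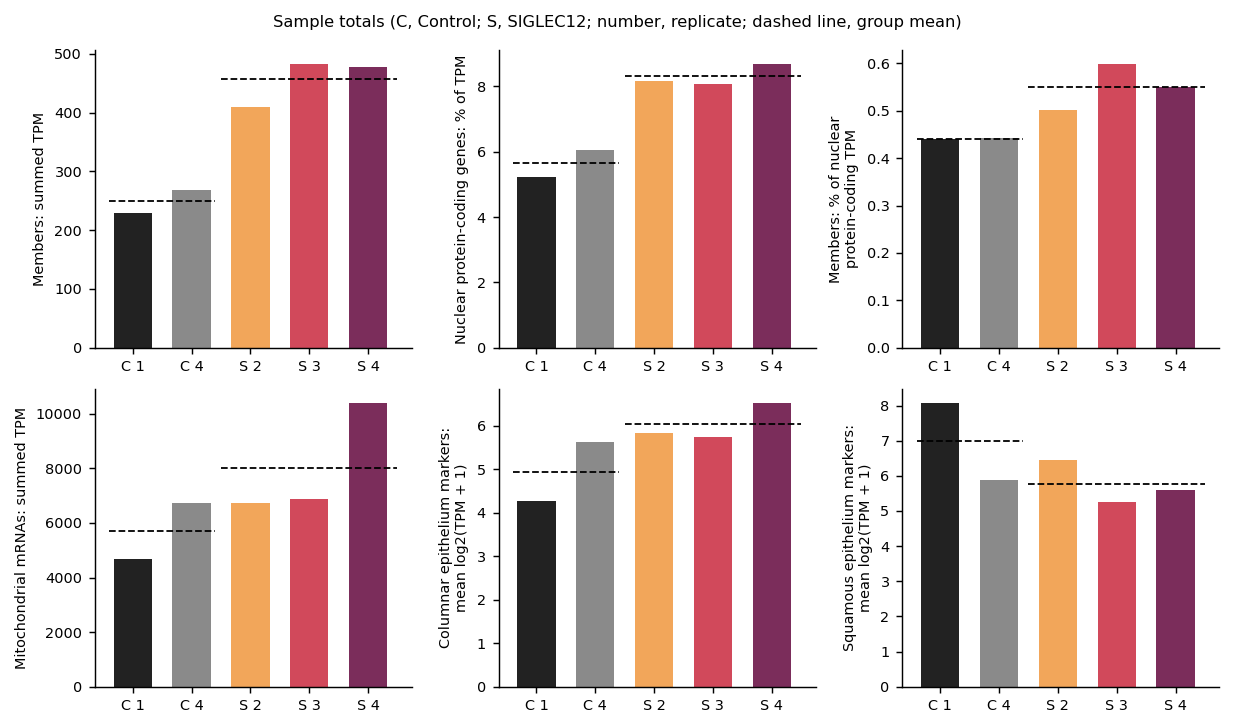
Bars give 1 value per sample for the summed TPM of the members, the percent of TPM taken by nuclear protein-coding genes, the members' percent of nuclear protein-coding TPM, the summed TPM of mitochondrial mRNAs, and the mean log2(TPM + 1) of columnar and squamous markers. The members' share was 0.440% and 0.443% in Control and between 0.502% and 0.598% in SIGLEC12.

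In the large subunit, 44 of 50 members tested were higher at an unadjusted p under 0.05 as deposited, where 33.4% of all genes were so. Among the 44 were Mrpl11 and Mrps30, which passed the filter only through their SIGLEC12 samples. The median difference was 0.62 as deposited and 0.23 rescaled. Mrpl12 (chr11:120484613-120489065, plus strand, GRCm38) encodes the stalk protein of the large subunit, which receives the translation factors. It was at 2.67 and 2.96 in Control and at 3.93, 4.21 and 4.15 in SIGLEC12, so its lowest SIGLEC12 value was well above its highest Control value. The difference was 1.28 ± 0.21 (SE) as deposited (limma, unadjusted p = 0.00065, adjusted p = 0.0974), the largest of the members. It was 0.79 ± 0.17 (SE) rescaled, where limma gave an unadjusted p = 0.0038 and an adjusted p = 0.457.

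Mrpl33, with a bacterial counterpart, was at 3.13 and 3.38 in Control and at 4.04, 4.60 and 4.18 in SIGLEC12, a difference of 1.02 as deposited and 0.51 rescaled. Mrpl41, found only in mitochondrial ribosomes, was at 1.95 and 2.25 against 2.85, 3.24 and 3.23, a difference of 1.01, and 0.55 rescaled. Mrpl58 encodes a peptidyl-tRNA hydrolase that frees stalled ribosomes and is also built into the large subunit. Its values were 2.10 and 2.52 in Control and 3.14, 3.38 and 3.42 in SIGLEC12, a difference of 1.0 as deposited and 0.54 rescaled. Mrpl34, with a bacterial counterpart, differed by 0.97 and by 0.50 rescaled. For each of these 4 genes, as for Mrpl12, the groups did not overlap on either scale. Of all genes, 54.1% were higher without overlap as deposited and 15.6% rescaled. Mrpl52, the member with the highest level, was at 3.78 and 3.91 in Control and at 4.54, 4.74 and 4.87 in SIGLEC12, a difference of 0.87 as deposited and 0.34 rescaled.

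At the other end of the large subunit stood Mrpl45, Mrpl35 and Mrpl19. Mrpl45, which sits at the exit of the peptide tunnel near the inner membrane, was at 1.05 and 1.40 in Control and at 1.23, 1.47 and 1.58 in SIGLEC12, so the groups overlapped. Its difference was 0.20 ± 0.19 (SE) as deposited and -0.13 ± 0.15 rescaled. Mrpl35 differed by 0.27 as deposited and -0.0041 rescaled, and Mrpl19 by 0.28 as deposited and -0.08 rescaled, so for all 3 the sign on the rescaled scale was opposite. Their mean levels were 1.56 TPM for Mrpl45, 1.04 TPM for Mrpl35 and 2.03 TPM for Mrpl19. Differences on the log2(TPM + 1) scale understate the change of such low genes.

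In the small subunit, 23 of 26 members were higher at an unadjusted p under 0.05 as deposited, where 33.4% of all genes were so. The median difference was 0.57 as deposited and 0.17 rescaled. Mrps33 (chr6:39801804-39810988, minus strand, GRCm38) is a small-subunit protein with no bacterial counterpart. It was at 1.89 and 1.94 in Control and at 3.02, 3.22 and 3.01 in SIGLEC12, so both groups were tight and far apart. The difference was 1.17 ± 0.17 (SE) as deposited (limma, unadjusted p = 0.00035, adjusted p = 0.0974) and 0.72 ± 0.16 (SE) rescaled (unadjusted p = 0.0044, adjusted p = 0.457). In mean TPM it went from 2.78 to 7.50, a ratio of 2.70, the highest of the members. Mrps33 and Mrpl12 were also the members that stood farthest above the rest on the rescaled scale.

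Mrps24, with a bacterial counterpart, differed by 0.96 as deposited and 0.52 rescaled. Mrps12, a protein of the decoding centre, was at 2.47 and 2.27 in Control and at 3.21, 3.41 and 3.35 in SIGLEC12, a difference of 0.95 as deposited and 0.48 rescaled. Mrps6, which binds small-subunit rRNA, was at 2.22 and 3.01 in Control and at 3.25, 3.47 and 3.74 in SIGLEC12. The Control samples of Mrps6 were farther apart than the 3 SIGLEC12 samples, and its difference of 0.87 ± 0.29 (SE) became 0.40 rescaled, with overlapping groups. Mrps21, the most abundant member of the small subunit, was at 3.51 and 3.54 against 4.24, 4.34 and 4.22, a difference of 0.74, and 0.22 rescaled with overlap.

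The smallest difference of all was that of Mrps25 (chr6:92169525-92184033, minus strand, GRCm38), a small-subunit protein with no bacterial counterpart. It was at 1.42 and 1.34 in Control and at 1.24, 1.70 and 1.78 in SIGLEC12, with SIGLEC12 replicate 2 below both Control samples. The difference was 0.19 ± 0.21 (SE) as deposited and -0.17 ± 0.19 rescaled, and 68.9% of the 31-base words of its transcripts also occur in transcripts of Nr2c2, so its value is uncertain. Mrps2 and Mrps10, both with bacterial counterparts, differed by 0.35 and 0.38 as deposited and by -0.04 and 0.02 rescaled.

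Some members bear a symbol that does not give their place. Mrps30 and Mrps18a encode proteins of the large subunit and differed by 0.43 and 0.52 as deposited and by 0.14 and 0.09 rescaled. Mrps36, now known as a subunit of the 2-oxoglutarate dehydrogenase complex of the citric acid cycle, was at 1.90 and 2.43 in Control and at 2.64, 2.82 and 2.79 in SIGLEC12, a difference of 0.58 as deposited and 0.14 rescaled. Mrpl23 did not pass the filter. It was at 0.41 and 0.67 in Control and at 0.36, 0.71 and 1.58 in SIGLEC12, so that SIGLEC12 replicate 4 alone was high. Mrpl11, Mrpl35 and Mrps30 passed the filter only through their SIGLEC12 samples, and they stay in the counts of members tested at this filter.

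The members were also compared by subunit and by origin. The ratio of summed TPM of the small to the large subunit was 0.447 and 0.446 in Control, and 0.440, 0.411 and 0.430 in SIGLEC12, so every SIGLEC12 sample was below both Control samples by a small amount. Members with a bacterial counterpart had a median difference of 0.61 (40 of 45 higher at an unadjusted p under 0.05), and those found only in mitochondria 0.55 (27 of 31). Rescaled, these were 0.22 (9 of 45) and 0.18 (5 of 31). The share of all genes higher was 33.4% as deposited and 4.45% rescaled. As deposited, the Control samples mostly kept the same order, while SIGLEC12 replicates 3 and 4 shared the highest place. Control replicate 1 was the lowest of the 5 samples in 64 members and Control replicate 4 in 12, and a SIGLEC12 sample in only 2. SIGLEC12 replicate 4 was the highest in 42 members, replicate 3 in 34 and replicate 2 in 2. Rescaled, the mean log2(TPM + 1) over the members was 2.18 and 2.17 in Control replicates 1 and 4.

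The members have short transcripts, and short transcripts differed more between the groups. Median transcript length was 1052 nt for the members and 2018 nt for the protein-coding genes tested. Across the 77 members the difference as deposited correlated with log2 length at Pearson r = -0.45 (Spearman rho = -0.48), and across 9222 protein-coding genes at r = -0.28 (rho = -0.33). Genes are not independent replicates, and all points share the same 5 libraries, so these values are descriptive. The difference was also larger for members of higher level, at r = 0.72 with log2 mean TPM, and 0.47 when 0.1 instead of 1 was added before the logarithm. Below 800 nt the median rescaled difference was 0.27 for 24 members and 0.14 for 1247 other protein-coding genes. From 800 to 1800 nt it was 0.14 for 32 members and 0.11 for 2815 other genes, and from 1800 nt it was 0.12 for 21 members and -0.05 for 5083 other genes. With the length trend removed from the rescaled values, 7 members were higher at an unadjusted p under 0.05, where 4.29% of all genes were so, and the family's median was 0.13, against 0.0042 over all genes. The 7 were Mrpl12, Mrps33, Mrpl58, Mrpl57, Mrpl47, Mrpl41 and Mrps24.

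**Figure D4:**
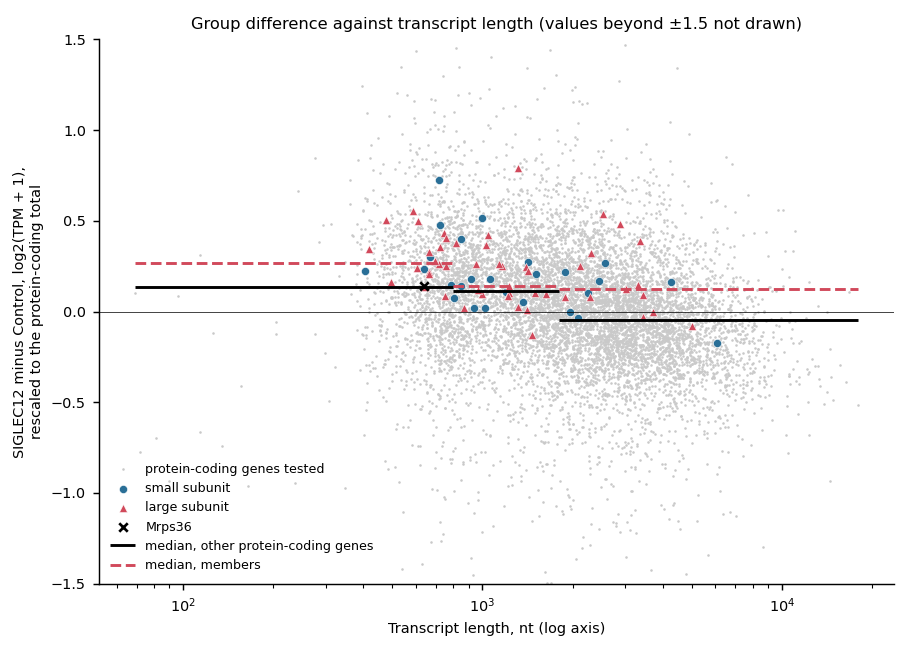
Rescaled difference between the groups against transcript length (log axis) for the protein-coding genes tested (grey) and the members (blue circles small subunit, red triangles large subunit, black cross Mrps36). Black lines give the median of the other protein-coding genes and red dashed lines that of the members below 800 nt, from 800 to 1800 nt and from 1800 nt. The members lie at 0.27, 0.14 and 0.12 against 0.14, 0.11 and -0.05.

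The other genes of mitochondrial translation, with which genes of mitochondrial transcription and its regulators are counted here, were closer to the background. Of 95 in the table, 73 passed the filter. At an unadjusted p under 0.05, 18 were higher, a smaller share than the 33.4% of all genes. Among the 18 were Gadd45gip1, Mtg1 and Fastkd2, which passed the filter only through their SIGLEC12 samples. Their being called higher is no support for a difference. Lars2 alone was lower (0.909% of all genes). The adjusted p of limma was at least 0.0974, and the median difference of the 73 was 0.37 as deposited and -0.01 rescaled. A few of them are ribosomal proteins without an Mrp symbol. Dap3, a GTP-binding protein of the small subunit, was at 1.84 and 2.27 in Control and at 3.02, 2.84 and 2.83 in SIGLEC12, a difference of 0.84 as deposited and 0.40 rescaled. Of the 4 such small-subunit genes 3 were higher at an unadjusted p under 0.05 as deposited (33.4% of all genes), with a median of 0.62, and 0 were higher rescaled, with a median of 0.18. Ptcd3 was the lowest at 0.17, and -0.26 rescaled. Gadd45gip1, of the large subunit, differed by 0.42, and by 0.13 rescaled.

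Counts in these lists are at an unadjusted p under 0.05, to be read against 33.4% of all genes higher as deposited and 4.45% rescaled. Assembly factors had a median difference of 0.39 (6 of 13 tested were higher), from Mettl17 at 0.05 to the ribosome-binding factor Rbfa at 0.61. Among the 6 were Mtg1 and Fastkd2, which passed the filter only through their SIGLEC12 samples. Rescaled, the median of the assembly factors was 0.11, with 0 higher and 1 lower. Translation factors had a median of 0.36 (2 of 11 higher, a smaller share than that of all genes), from the elongation factor Gfm2 at 0.12 to the membrane insertase Oxa1l at 0.62. Rescaled, their median was 0.02, with 0 higher. Among 12 tRNA synthetases and amidotransferase subunits tested, 1 was higher and 1 lower, and the median was 0.28 as deposited and -0.05 rescaled, with 0 higher and 2 lower. The isoleucine enzyme Iars2 was highest with a difference of 0.55 (0.11 rescaled) and the leucine enzyme Lars2 lowest. Lars2 was at 10.49 and 10.57 in Control and at 9.66, 10.07 and 10.04 in SIGLEC12, a difference of -0.61 as deposited and -1.16 rescaled. No other gene of this list was above 2.85, the value of Iars2 in SIGLEC12 replicate 4. Lars2 thus stood far outside the level of its list, so its value is uncertain, and what its reads come from was not tested. Of 17 genes of mitochondrial transcription and its regulators, 4 were higher, a smaller share than that of all genes, and the median was 0.37, from Pprc1 at -0.12 to the DNA-packaging factor Tfam at 0.69. Rescaled, their median was -0.01, with 0 higher and 1 lower. Nrf1 and the ETS factor Gabpa, known regulators of this gene family, differed by 0.29 and 0.36 as deposited and by -0.07 and -0.06 rescaled.

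The RNAs that the mitochondrial ribosome contains and reads are encoded in mitochondrial DNA. mt-Rnr1, the small-subunit rRNA, was at 11.25 and 12.12 in Control and at 11.86, 11.70 and 11.99 in SIGLEC12, a difference of 0.16 as deposited and -0.39 rescaled. mt-Rnr2, the large-subunit rRNA, was at 11.11 and 11.92 against 12.06, 12.05 and 12.33, a difference of 0.63, and 0.08 rescaled. Of the 13 mitochondrial mRNAs, 1 was higher at an unadjusted p under 0.05 (33.4% of all genes), mt-Co2 with a difference of 1.27. It was at 4.03 and 2.65 in Control and at 4.83, 4.17 and 4.81 in SIGLEC12. In every sample this was the lowest level of the 13, so its value is uncertain. The smallest difference was that of mt-Nd6 at -0.07. The median difference of the 13 was 0.48 as deposited and -0.08 rescaled. The ratio of the members' summed TPM to that of mitochondrial mRNAs was 0.049 and 0.040 in Control and 0.061, 0.070 and 0.046 in SIGLEC12, so the groups overlapped.

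**Figure D5:**
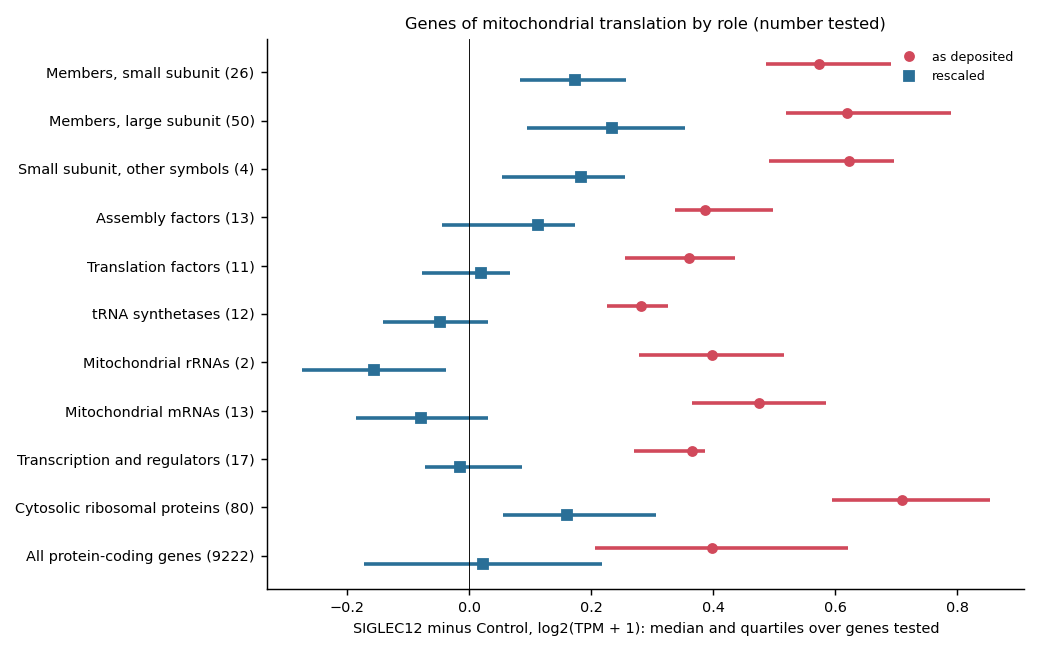
Median and quartiles of the group difference over the genes tested in each list, as deposited (red) and rescaled to the protein-coding total (blue). On the rescaled scale the subunits of the mitochondrial ribosome lie at 0.17 and 0.23, cytosolic ribosomal proteins at 0.16 and mitochondrial mRNAs at -0.08.

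Cytosolic ribosomal protein genes, the counterpart outside mitochondria, showed a like difference as deposited. Of 80 tested, 63 were higher at an unadjusted p under 0.05 as deposited (33.4% of all genes), with a median of 0.71. Rescaled, the median was 0.16 and 1 was higher, a smaller share than the 4.45% of all genes. Their share of nuclear protein-coding TPM was 11.1% and 8.17% in Control and 10.5%, 12.1% and 10.5% in SIGLEC12, so unlike the members' share it overlapped between the groups. The difference between these families was not tested.

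Many members share their start region with another gene. A protein-coding neighbor read in the opposite direction began within 500 bases of the member's start for 25 of 78 members (32.1%), against 1269 of 9222 protein-coding genes tested (13.8%). For 14 of them the neighbor was tested and was no member, and the member had the larger difference in 11. The median was 0.58 for these members and 0.35 for their neighbors as deposited, and 0.15 against -0.03 rescaled. Mrps12 and Sars2, which encodes the mitochondrial serine tRNA synthetase, start 172 bases apart, and their differences were 0.95 and 0.33 as deposited and 0.48 and 0.09 rescaled. Sars2 was low, at 0.60 and 0.79 in Control and at 1.14, 0.85 and 1.07 in SIGLEC12, and passed the filter only through SIGLEC12. The added 1 shrinks differences at such levels, and members and neighbors were not matched for level. The 3 neighbors with the larger difference were Ndufs6 beside Mrpl36 (0.90 against 0.71), Fau beside Mrpl49 (0.80 against 0.37) and Klc4 beside Mrpl2 (0.73 against 0.54). Mrps11 and Mrpl46 are neighbors of this kind within the family, and differed by 0.52 and 0.63.

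A promoter window was matched for 69 of the 78 members. The ETS core CCGGAAG was in 25 of them (36.2%), against 19.97% of windows of protein-coding genes tested and 9.12% of all 27025 windows. The YY1 core AAGATGGC was in 17.4%, against 5.21% and 2.88%, and the NRF1 core GCGCATGC in 11.6%, against 5.76% and 2.80%. CCAAT boxes were in 39.1% of the members, 38.3% of genes tested and 37.9% of all windows. GC boxes were in 49.3% of the members, which was below the 66.7% of genes tested, and the E-box CACGTG in 7.25% against 10.5%. Members with the ETS core had a median difference of 0.70 (n = 25) and those without it 0.59 (n = 43). Those with and without the NRF1 core were at 0.54 (n = 8) and 0.61 (n = 60). Rescaled, the medians were 0.28 and 0.16 with and without the ETS core, and 0.11 and 0.22 with and without the NRF1 core. A match says only that these letters are in the window.

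Some members shared much of their transcript sequence with other genes, counted over all transcripts of a gene together. For 16 members no 31-base word was shared with another gene, and for 29 more than 10% were. The share was over 50% for Mrpl53 (84.4%, with Gm42688), Mrps34 (73.8%, mostly with Mapk8ip3) and Mrps25, and their values are uncertain. It was 15.9% for Mrpl12 and 15.6% for Mrps33, the latter with the gene model Gm5776.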

How the data were processed

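RNA-seq was analysed for 5 mouse colon tumor samples, grouped by genotype as labelled. The authors deposited 1 table of log2 values for 52143 genes; in each column the untransformed values summed to about 1000000, so they were read as log2(TPM + 1). The submitters' processing notes name kallisto 0.45.0 and GRCm38, while the study's methods name another kallisto version and a human reference, and the kit is a total RNA kit in the labels and an mRNA kit in the methods. The methods name technical libraries per sample, and how these were combined into a column is not given in the sources used here. Of the gene identifiers, 98.45% were in GENCODE M21, from which lengths and positions came. Human SIGLEC12 was not analysed here, so the genotype labels were not checked on it. The series text speaks of more Control mice than the 2 analysed here. The number of value columns with no sample was 0.

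Genes with TPM of at least 1 in at least 2 samples were fitted with limma 3.58.1 in R 4.3.3 (lmFit, eBayes with trend, two-sided), adjusted by Benjamini-Hochberg over all 10338 genes tested. The fit was tested on simulated data. A 31-base word count over transcripts gave shared sequence, and motifs were searched on both strands of RefSeq promoter windows. The named members were, per subunit, the 5 largest and 3 smallest differences and the 3 highest mean TPM, with the 3 smallest p of the family, members below the filter and members outside their subunit. From each other list came the largest and the smallest, and both rRNAs. Genes named for another reason (members and other genes listed by name in a count, those with shared sequence, the neighbors, Nrf1, Gabpa) were chosen after their values were seen. The members and lists were chosen with earlier results of these data known. Alternatives changed pseudocount, filter, scaling, length trend, weights, an epithelial covariate and the samples used, and rescaling without each Control sample was added after seeing the data.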

Additional observations from a re-analysis of the deposited data

How the results depend on the processing

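The direction of the family held under every alternative run, but its counts depended on scaling. Where a count in this section has no share of all genes beside it, it cannot be read against the background of that setting. The number of members past an adjusted p of 0.05 was 0, and between 0 and 21 with 1 sample left out, the 21 being without Control replicate 4, where 18.3% of all genes passed (0 members when rescaled). Those higher at an unadjusted p numbered 68. They were 35 of 36 tested at a filter of 5 TPM, 14 rescaled, 14 by quantile normalization, 12 with median-ratio factors, 7 with the length trend removed, 30 with the epithelial covariate, and between 39 and 63 with 1 sample left out. Rescaled and without Control replicate 1 or 4, they were 4 and 9. Members with a log2(TPM + 1) difference of at least 1 numbered 4, where 4.68% of all genes were so (16 were at least 2-fold higher by the ratio of mean TPM, against 13.7% of all genes). They were 13 with 0.1 added instead of 1, 2 with sample weights, 0 rescaled, by quantile normalization, with median-ratio factors or with the length trend removed, between 3 and 10 with 1 sample left out, and 0 rescaled with either Control sample left out. Non-overlap is easier to reach with fewer samples, most of all with 1 Control sample left. Its counts with a sample left out therefore do not show that the family's result is robust. Members higher without overlap numbered 74, where 54.1% of all genes were so. They were 36 of 36 at the strict filter, 40 rescaled, 37 by quantile normalization, 32 with median-ratio factors, 24 with the length trend removed, between 74 and 77 with 1 sample left out, and 53 and 46 rescaled without Control replicate 1 and 4.

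The median difference of 0.61 was 0.79 at a pseudocount of 0.1, 0.76 at the strict filter, 0.21 rescaled, 0.20 by quantile normalization and with median-ratio factors, 0.13 with the length trend removed, 0.49 with the epithelial covariate, between 0.50 and 0.68 with 1 sample left out, and 0.20 and 0.16 rescaled without Control replicate 1 and 4. The 18 other mitochondrial translation genes that were higher became 4 at the strict filter, 0 rescaled, 2 by quantile normalization, 1 with median-ratio factors, 0 with the length trend removed, 5 with the covariate, between 6 and 25 with 1 sample left out, and 1 rescaled without either Control sample. Among the named members, signs reversed for Mrps25 (-0.174 rescaled, -0.128 quantile, -0.181 median-ratio, -0.0304 length trend), Mrpl45 (-0.128, -0.0903, -0.131 and -0.21, and -0.078 with the covariate), Mrpl19 (-0.0785 rescaled, -0.0349 quantile, -0.0828 median-ratio), Mrps2 (-0.0375 rescaled, -0.0466 median-ratio, -0.0629 length trend), Mrpl35 (-0.0041 rescaled, -0.010 median-ratio), Mrps10 (-0.094 length trend) and Mrps18a (-0.0381 length trend). The causes were not tested.

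No paired analysis was possible because replicate number 4 alone occurs in both groups. With 2 and 3 samples and unknown depth, small differences between members cannot be resolved, and the rescaling assumes an equal protein-coding total in each sample.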
